A study of Mus musculus with 2 samples.

Results

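The genes described here are the 48 named genes of DNA replication in cultured fetal mouse lung epithelium, from origin licensing and the replicative helicase to the polymerases, the supply of nucleotides and the methylation of newly made DNA. They are a list of gene names, found here as the probe sets whose annotation names exactly 1 of them. This gave 106 of the 45101 probe sets of the array and 48 of the 18193 genes with such a probe set. All 48 genes were above background on both arrays.

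Replication starts in G1, when the origin recognition complex, Cdc6 and Cdt1 load the ring-shaped MCM helicase onto DNA. In S phase the helicase is switched on by joining Cdc45 and the GINS complex, and polymerases then copy both strands on a sliding clamp, PCNA, that a clamp loader places on the DNA. Transcription of many of these genes is periodic, driven by E2F factors as cells enter S phase, so that their mRNA levels are widely read as a sign of cycling cells. The tips of the branching lung epithelium are a site of rapid division in the embryo.

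The epithelium came from ICR mouse lungs of embryonic day 11 and was grown in Matrigel, a basement membrane gel, in medium with FGF10, on which lung buds depend for outgrowth. All of it first spent 4 days with CHIR99021, which turns on canonical Wnt signalling by blocking glycogen synthase kinase 3. It was then broken up, embedded again and kept for 2 days with FGF10, in one culture with CHIR99021 and in the other without it, so the comparison is between keeping and withdrawing the inhibitor after a shared exposure. Each condition was measured on 1 array. No spread between cultures can be given, no test was possible, and the values below describe these 2 arrays. How many lungs went into each RNA is not given in the sources used here. In such bulk RNA, fewer cells in S phase and less replication mRNA per cell cannot be told apart.

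The values are MAS5 signals on a linear scale, and a log2 ratio is the signal with CHIR99021 over that without it. A gene was read from its brightest probe set, and the background floor, set from probe sets for olfactory and vomeronasal receptors, was 19.2 without and 12.7 with CHIR99021. Over the 12917 genes above the floor on at least 1 array, most were dimmer with CHIR99021, with a median log2 ratio of -0.42. For beta-actin the 3' over the 5' signal was 1.29 without CHIR99021 and 3.18 with it, and for Gapdh 0.737 and 1.62, so the array with the inhibitor had the larger 3' bias of both. Of 11 epithelial marker genes, 11 were above the floor without and 10 with CHIR99021, with summed signals of 43296 and 27011. Within that list Sox9, a marker of the lung bud tips, had 70.1 without and 771 with CHIR99021, and Krt19 4030 and 278. Nkx2-1, which defines lung epithelium, had 52.0 and 5.84, below the floor with the inhibitor. Sftpc had 8808 and 8500, Epcam 3846 and 3743 and Cldn6 387 and 437. Foxa1 had 2686 and 1897, Foxa2 2549 and 1820, Cdh1 6414 and 3574, Krt8 7715 and 3151 and Krt18 6738 and 2834. Of 10 mesenchymal markers 5 were above the floor on each array, and the summed signals of the list were 444 and 381. Acta2 had 199 and 194, Col3a1 88.7 and 54.6 and Col1a2 63.8 and 49.3. Col1a1 had 24.7 and 35.8 and Tcf21 24.1 and 13.2. Pdgfra, Pdgfrb, Tbx4, Twist1 and Wnt2 were below the floor on both. Of the endothelial and blood markers, 1 of 5 and 1 of 4 were above it on each array. They were Kdr at 32.0 and 23.5 and Cd68 at 28.1 and 19.4. Pecam1, Cdh5, Tek, Emcn, Ptprc, Hba-a1 and Itgam were below the floor on both. Of 3 nerve markers 2 were above it without and 1 with CHIR99021, and of 3 mesothelial markers Msln alone was above it, at 471 without and 4.84, below the floor, with the inhibitor. The part of these markers and of the 3' bias in the results below was not tested.

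The replication genes lay above the other genes on these arrays, by small ratios. Their median log2 ratio was 0.26, against -0.42 over all measured genes, and 33 of the 48 had a higher signal with CHIR99021 (68.8%), where 22.6% of all genes did. The middle part of the members, from the lower to the upper quartile, ran from -0.12 to 0.48. Most members thus differed by well under 2-fold in either direction. Uhrf1, which recruits the maintenance DNA methyltransferase to replicated DNA, and Gins2, a subunit of the active helicase, were the 2 members at least 2-fold higher, beside 1.90% of all genes. No member was at least 2-fold lower, while 18.4% of all genes were. At a 1.5-fold threshold 7 members were higher (5.05% of all genes) and 3 lower (38.7%). At 3-fold 0 were higher (0.627%) and 0 lower (6.29%).

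**Figure D1:**
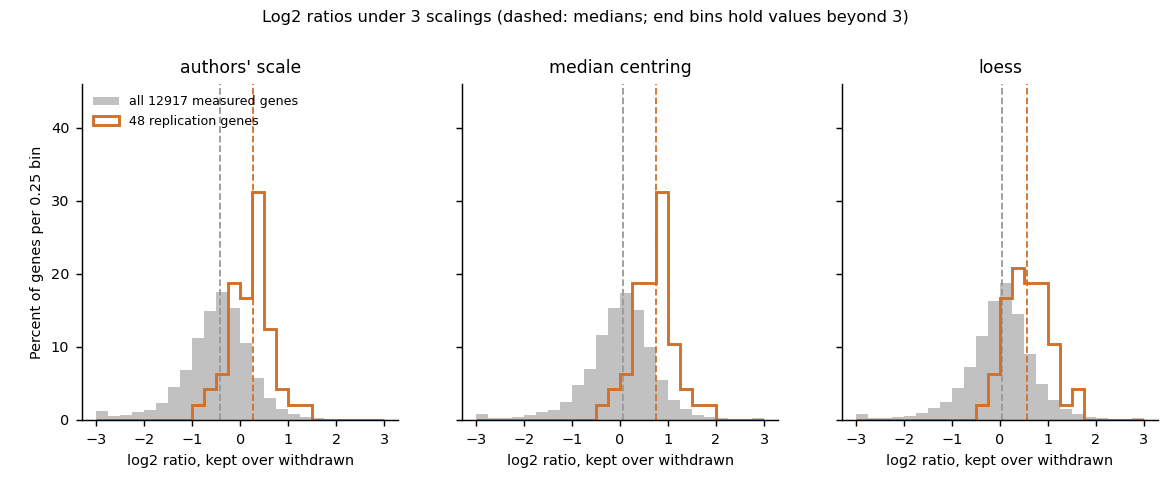
Histograms of log2 ratios (CHIR99021 kept over withdrawn, 1 array each) in percent of genes per bin, for all 12917 measured genes (grey) and the 48 replication genes (orange), on the authors' scale, after median centring and after loess. In each panel the dashed median of the replication genes lies to the right of that of all genes.

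How far the replication genes stood above 0 depended on the scaling, since the arrays did not share a level. Median centring of the probe sets raised every ratio by the same amount, so that the members' median was 0.74 against 0.05 for all genes. It put 9 members at least 2-fold higher, where 5.91% of all genes were, and 0 lower (7.44% of all genes). Loess, which removes the dependence of the ratio on signal, gave a median of 0.57 against 0.04, with 8 members higher (6.03% of all genes) and 0 lower (7.29%). Quantile normalization gave 9 higher (7.38%) and 0 lower (6.43%), and scaling on the bacterial hybridization controls 3 higher (2.74%) and 0 lower (13.7%). Gins3, a dim member, was among the higher ones, at 1.01 after median centring, 1.18 after quantile normalization and 1.09 after loess. Another of its probe sets had a log2 ratio of -0.59 on the authors' scale. Tyms, the dimmest member, was among them after quantile normalization (1.15) and loess (1.05). A higher signal with CHIR99021 was seen for 45 members after median centring (53.8% of all genes), 45 after quantile normalization (58.4%), 44 after loess (53.2%) and 39 on the hybridization controls (32.7%). On the authors' scale, after median centring and after loess, 44 of the 48 members lay above the median of all genes.

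Signal bears on this comparison, because genes of high signal shifted less between the arrays than dim ones. With the measured genes in 4 equal classes of mean signal, from the lowest to the highest, the median log2 ratio of all measured genes was -0.55, -0.47, -0.43 and -0.25. Of the 48 members 25 lay in the highest class, 19 in the next and 4 in the one below it. The 25 had a median of 0.34, and 20 of them had a higher signal with CHIR99021, where 29.7% of the 3229 genes of that class did. The 19 had a median of 0.10, and 11 of them had a higher signal, where 21.8% of the genes of their class did.

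**Figure D2:**
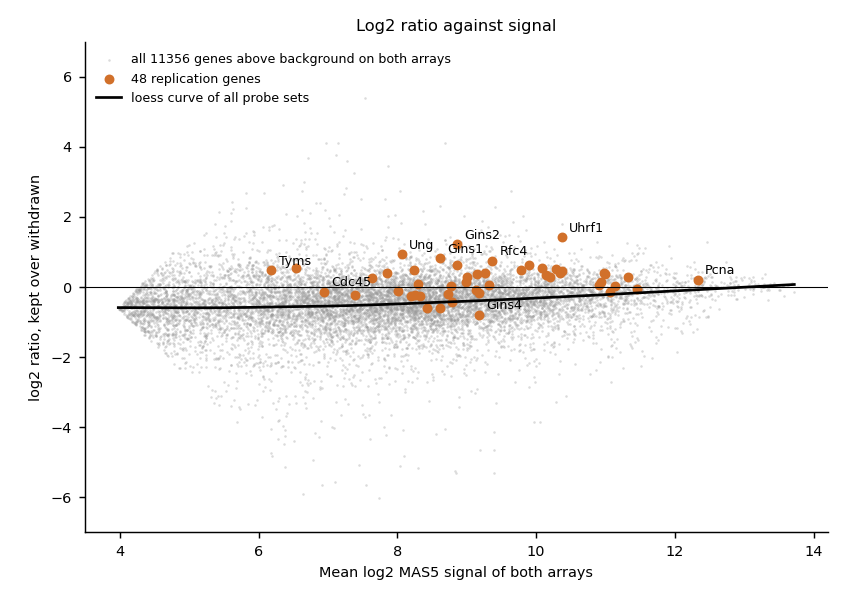
Log2 ratio (CHIR99021 kept over withdrawn) against mean log2 signal of both arrays, for the 11356 genes above background on both arrays (grey) and the 48 replication genes (orange), with the loess curve of the probe sets. The curve rises with signal, and most replication genes sit above it, with Uhrf1 and Gins2 the highest and Gins4 the lowest of them.

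The sequences upstream of 7 of these genes are shown because they hold different numbers of E2F-type words, beside log2 ratios of 1.42 for Uhrf1, 0.93 for Ung, 0.75 for Rfc4, 0.53 for Gins3, -0.15 for Mcm6, -0.22 for Orc1 and -0.26 for Cdc6. The members with the lowest ratios, Gins4, Rpa2 and Orc5, are not among the genes shown. These ratios are those of the brightest probe sets. By another probe set above the floor Uhrf1 was at 0.18, Rfc4 at 0.78, Gins3 at -0.59, Mcm6 at -0.23 and Orc1 at 0.27. The probe sets of Gins3 and of Orc1 thus disagreed in sign. The sequences are the 250 bases before the annotated start (RefSeq, GRCm38.p6), written in the direction of the gene, with matches to E2F-type words and to CCAAT in capitals on either strand.
Uhrf1 (chr17:56304063-56304312, plus strand): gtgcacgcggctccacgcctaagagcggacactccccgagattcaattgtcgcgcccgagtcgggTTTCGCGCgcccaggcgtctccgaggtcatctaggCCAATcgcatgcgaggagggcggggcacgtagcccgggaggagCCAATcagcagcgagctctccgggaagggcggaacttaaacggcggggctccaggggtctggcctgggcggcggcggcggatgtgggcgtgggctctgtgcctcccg
Ung (chr5:114130185-114130434, plus strand): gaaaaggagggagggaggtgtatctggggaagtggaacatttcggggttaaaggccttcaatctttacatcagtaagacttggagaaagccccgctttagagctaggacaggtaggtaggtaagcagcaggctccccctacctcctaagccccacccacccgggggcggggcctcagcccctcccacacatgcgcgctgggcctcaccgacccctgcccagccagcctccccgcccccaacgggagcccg
Rfc4 (chr16:23127731-23127980, minus strand): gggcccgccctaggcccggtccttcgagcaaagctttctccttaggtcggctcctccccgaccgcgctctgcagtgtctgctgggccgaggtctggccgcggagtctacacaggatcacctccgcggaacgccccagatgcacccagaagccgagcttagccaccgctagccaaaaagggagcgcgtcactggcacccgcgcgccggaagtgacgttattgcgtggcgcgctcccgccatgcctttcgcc
Gins3 (chr8:95633309-95633558, plus strand): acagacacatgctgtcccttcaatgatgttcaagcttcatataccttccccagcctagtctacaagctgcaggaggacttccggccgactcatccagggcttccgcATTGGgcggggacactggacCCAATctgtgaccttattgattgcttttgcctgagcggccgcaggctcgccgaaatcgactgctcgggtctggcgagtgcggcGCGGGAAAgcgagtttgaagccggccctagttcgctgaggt
Mcm6 (chr1:128359706-128359955, minus strand): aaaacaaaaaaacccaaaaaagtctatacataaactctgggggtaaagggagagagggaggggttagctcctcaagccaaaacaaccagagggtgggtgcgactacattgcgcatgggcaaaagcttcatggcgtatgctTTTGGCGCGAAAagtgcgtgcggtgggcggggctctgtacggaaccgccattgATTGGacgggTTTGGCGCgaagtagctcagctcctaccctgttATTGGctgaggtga
Cdc6 (chr11:98907901-98908150, plus strand): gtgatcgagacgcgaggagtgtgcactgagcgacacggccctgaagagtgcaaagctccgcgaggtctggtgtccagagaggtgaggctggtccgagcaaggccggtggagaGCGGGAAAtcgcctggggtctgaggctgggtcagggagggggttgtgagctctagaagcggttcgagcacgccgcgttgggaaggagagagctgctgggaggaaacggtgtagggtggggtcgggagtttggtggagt
Orc1 (chr4:108579204-108579453, plus strand): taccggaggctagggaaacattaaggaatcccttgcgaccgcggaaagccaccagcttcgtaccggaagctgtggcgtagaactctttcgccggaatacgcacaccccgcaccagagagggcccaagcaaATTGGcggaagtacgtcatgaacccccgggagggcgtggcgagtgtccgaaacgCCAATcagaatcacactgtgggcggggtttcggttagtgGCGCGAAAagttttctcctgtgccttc
The E2F-type words searched were TTTCCCGC, TTTGCCGC, TTTCGCGC and TTTGGCGC on both strands, so a match on the other strand reads for example GCGGGAAA or GCGCGAAA. The stretch of Mcm6 holds 3, the farther pair overlapping, beginning 110 bases before the start and the nearest 47 bases before it. Uhrf1 holds 1, beginning 185 bases before the start used here, Cdc6 1 at 138 bases, Gins3 1 at 41 bases and Orc1 1 at 27 bases. Of the 2 annotated starts of Uhrf1, the one with more E2F-type words was shown, and the window of the other held none. Ung and Rfc4 hold none in this stretch, nor a CCAAT.

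Promoter windows, 250 bases before to 50 after a start, were found in the RefSeq table for 40 of the 48 members. Those without an entry were Mcm4, Gins1, Gins2, Gins4, Gmnn, Prim2, Pole and Rfc2. An E2F-type word occurred in a window of 16 of the 40 members (40.0%), and in 4.61% of the 10462 measured genes and 2.26% of all 32851 windows in the table. The 16 members with one had a median log2 ratio of 0.11, from -0.43 for Orc3 to 1.42 for Uhrf1, and the 24 without had 0.31, from -0.60 for Rpa2 to 0.93 for Ung. The ranges overlapped, and the members with a word had the lower median. CCAAT, the core of the NF-Y site, occurred for 26 of the 40 (65.0%, against 42.7% of measured genes), GGGCGG, the GC box, for 31 (77.5% against 67.1%) and CACGTG, the E-box bound by Myc and other factors, for 7 (17.5% against 11.6%). CTTTGAT, a word bound by TCF and LEF, the DNA-binding partners of beta-catenin, occurred for 0 of the 40, against 3.12% of measured genes. The median GC content was 60.0% in the 51 windows of the members and 52.7% in all windows. A match is a stretch of letters and no measured site.

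The origin recognition complex, which marks the places where replication can start, was the role group with the lowest median, -0.25, and the only one of the 10 whose median was below 0 on the authors' scale. Orc5 had a signal of 481 without and 318 with CHIR99021, Orc3 514 and 382, Orc2 321 and 267, Orc1, the subunit with the most marked cell cycle regulation, 181 and 155, and Orc4 615 and 548. These 5 were lower with CHIR99021, by at most 1.51-fold. Orc6 went the other way, with 534 and 700. Of all 12917 measured genes 9995 were lower as well, with a median log2 ratio of -0.42. Above that median lay 4 of the 6 genes of the complex. After loess the log2 ratios were -0.16 for Orc5, -0.01 for Orc3, 0.20 for Orc2, 0.30 for Orc1 and 0.22 for Orc4, so that 3 of these 5 subunits changed sign with the scaling. Orc6 was at 0.78 after loess. Beside this, the other probe sets of Orc2 had log2 ratios of -1.03 and -1.32, and that of Orc1 one of 0.27. Those of Orc3 were at -0.17 and -1.19, and those of Orc4 at -0.70, -0.67 and 0.01.

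The licensing factors were divided. Cdt1, which brings the MCM ring to the origin, had 1752 without and 2324 with CHIR99021, and its other probe set above the floor 449 and 610. Gmnn, geminin, which binds Cdt1 and blocks a second round of licensing, had 901 and 1319. Both were thus higher with CHIR99021, by 1.33-fold and 1.46-fold. Cdc6, the loading ATPase, had 351 and 292, a log2 ratio of -0.26 that became 0.19 after loess.

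In the MCM ring, Mcm4, Mcm5, Mcm6 and Mcm7 had nearly equal signals on both arrays, and the other 2 of its 6 subunits had somewhat higher signals with CHIR99021 by their brightest probe sets. Mcm3 had 1130 without and 1547 with CHIR99021 and Mcm2 499 and 648, the 2 subunits with the highest ratios, of 1.37-fold and 1.30-fold. Mcm2 was higher by both its probe sets, but Mcm3 has others at log2 ratios of -0.09 and -2.93, and was at -0.09 when probe sets of the _x_at and _s_at kind were left out. Mcm5 had 1876 and 2053, and Mcm4 1871 and 1950. Mcm7 had 2860 and 2761, and Mcm6, whose upstream stretch holds the most E2F-type words of those shown, 2253 and 2036. The group's median log2 ratio of 0.09 was nearer to 0 than that of most role groups, and after loess it was 0.32, with all 6 above 0.

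The factors that switch the helicase on held both ends of the range of helicase genes. Gins2 had 303 without and 709 with CHIR99021, 2.34-fold higher, and its other probe set 175 and 362. Gins1 had 295 and 520, 1.76-fold higher, while its dimmer probe set had 42.1 and 47.4. Gins4 had 763 and 443, 1.72-fold lower, which was the lowest log2 ratio of all 48 members (-0.79, and -0.40 after loess). The 4 GINS subunits form 1 complex, and on these arrays their brightest probe sets did not all go the same way. The contrast rests on Gins4, which was read from 1 probe set. Gins3 had 77.1 and 112 by one probe set and 85.0 and 56.3 by the other, opposite in direction, so no direction is given for it. Mcm10, which helps to activate the loaded ring, had 200 and 265. Cdc45, the third part of the active helicase, had 129 and 117.

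Among the polymerase genes, Pold1, Pold2 and Prim1 had the highest ratios, while Pole and Pole2 had nearly equal signals on both arrays. Pold2, the small subunit of polymerase delta, had 372 without and 581 with CHIR99021, 1.56-fold higher, and Pold1, its catalytic subunit, 254 and 357, or 165 and 229 by its other probe set. Prim1, the catalytic subunit of primase, had 1047 and 1490, and 745 and 1346 by its other probe set. Prim2, its partner, had 327 and 282, with a second probe set at 167 and 190, so its probe sets disagreed in sign. Pola1 and Pola2, subunits of the initiating polymerase alpha, had 464 and 563, and 181 and 216. Pole, the catalytic subunit of the leading strand polymerase epsilon, had 269 and 249, and Pole2 584 and 545. All 8 genes were above 0 after loess, from 0.25 for Prim2 to 1.06 for Pold2.

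Pcna, the sliding clamp, had 4804 without and 5535 with CHIR99021, 1.15-fold higher. The subunits of its loader differed among themselves. Rfc4 had 510 and 858, 1.68-fold higher, and its other probe set 363 and 623. Rfc5 had 742 and 1045, 1.41-fold higher. Rfc2 (434 and 444) and Rfc3 (304 and 325) had nearly equal signals, with probe sets of either sign. Rfc1, the large subunit, had 454 and 398, and both its other probe sets were lower with CHIR99021 as well, at log2 ratios of -0.67 and -0.45.

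The single-strand binding protein RPA was also uneven. Rpa3, the small subunit, had 1003 without and 1266 with CHIR99021, and Rpa1, the large one, 2228 and 2287. By its other probe set Rpa1 had 1077 and 830, so its probe sets disagreed in sign. Rpa2 had 425 and 280, and 237 and 54.0 by its other probe set, a log2 ratio of -2.13. Of the genes that finish the lagging strand, Fen1, the flap nuclease, had 770 and 1180, 1.53-fold higher, and 492 and 661 by its other probe set, while Lig1, the ligase, had 622 and 653.

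All 4 genes of nucleotide supply had a higher signal with CHIR99021 by their brightest probe set, with log2 ratios between 0.15 and 0.48. Rrm1 and Rrm2, the subunits of ribonucleotide reductase, which makes deoxynucleotides, had 1060 without and 1293 with CHIR99021, and 2325 and 2849. Tk1, the thymidine salvage kinase, had 484 and 537. Tyms, thymidylate synthase, had 61.5 and 85.9, a log2 ratio of 0.48 that was 1.05 after loess. Rrm1 and Rrm2 each had a further probe set that pointed strongly the other way, at 619 and 117 for Rrm1 and 494 and 190 for Rrm2.

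The last role group, of genes of DNA methylation, histone mRNA and uracil removal, had the highest median log2 ratio, 0.66, and all 4 were higher with CHIR99021. Uhrf1 had 810 without and 2160 with CHIR99021, 2.67-fold higher and the highest ratio of all members. Its other probe set had 126 and 143, a log2 ratio of 0.18 against 1.42. Ung, which removes uracil from DNA, had 194 and 371, 1.91-fold higher and just under the threshold, by its single probe set. Dnmt1, the maintenance methyltransferase that Uhrf1 recruits, had 1138 and 1490, and 970 and 1672 by the probe set with its highest ratio, 0.78. Slbp, which binds the stem-loop of histone mRNA, had 1788 and 2316.

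**Figure D3:**
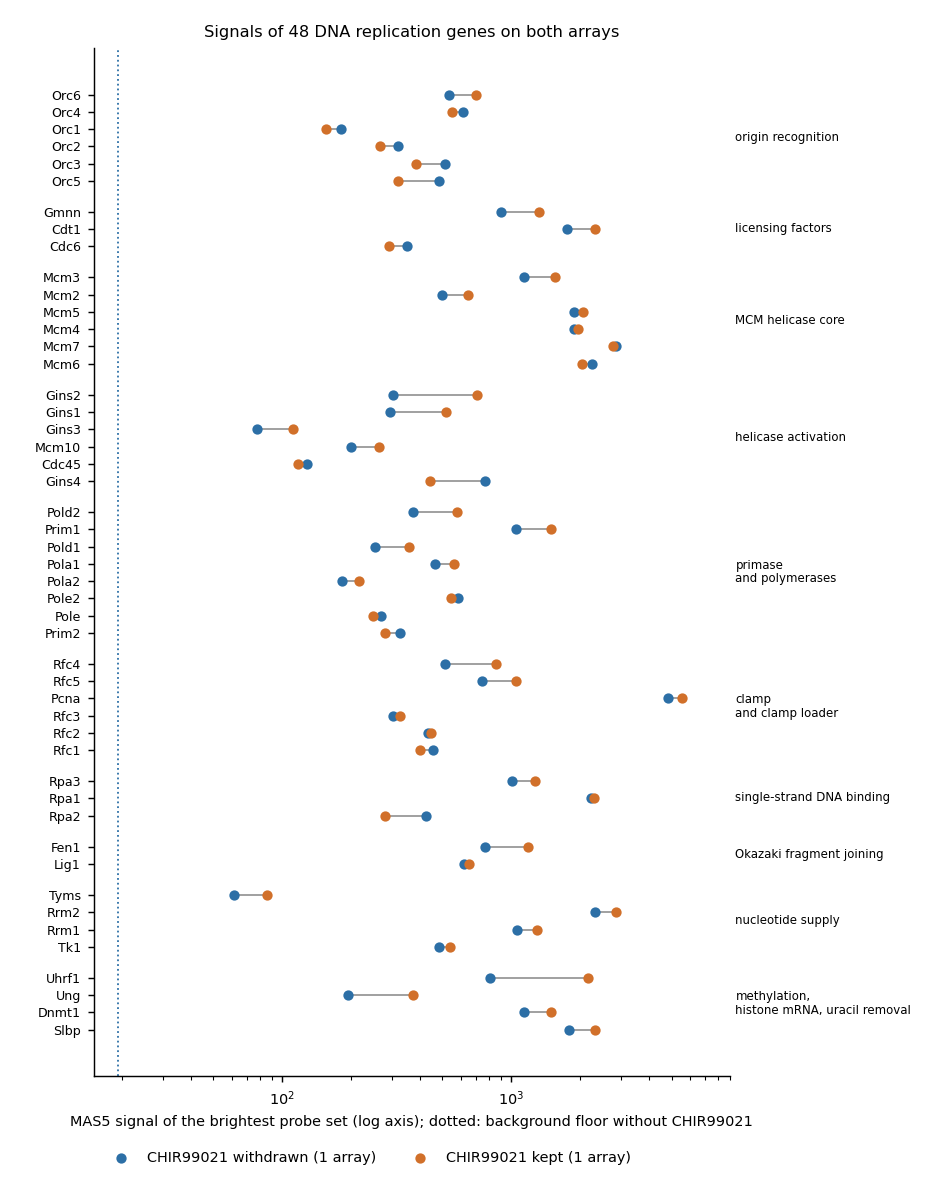
MAS5 signal (log axis) of the brightest probe set of each of the 48 replication genes, by role, without CHIR99021 (blue) and with it (orange), 1 array each and so with no error bars. The widest gaps are those of Uhrf1 and Gins2, while the points of Mcm4, Mcm5 and Mcm7 nearly coincide, and all points lie above the background floor of 19.2.

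Probe sets of one gene did not always tell the same story, which limits what a single ratio can show. Of the 106 probe sets 92 were above the floor on both arrays, 5 on 1 array and 9 on neither. Of 30 members with 2 or more on both arrays, 12 were higher with CHIR99021 by all of them and 5 lower by all. The other 13 had probe sets that disagreed in sign. This split was not counted over all genes, so whether it is particular to the members cannot be told. The 12 were Cdt1, Mcm2, Gins1, Gins2, Prim1, Pold1, Rfc4, Fen1, Tyms, Uhrf1, Dnmt1 and Slbp. The 5 were Mcm6, Orc2, Orc3, Rfc1 and Rpa2. The 13 were Mcm3, Mcm4, Mcm5, Mcm7, Orc1, Orc4, Gins3, Prim2, Rfc2, Rfc3, Rpa1, Rrm1 and Rrm2. The SD of the log2 ratio between probe sets of a gene was 0.66 for these members and 0.56 over 5335 genes.

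The 44 further probe sets of the members, those that were not the brightest, had a median log2 ratio of -0.04, and 22 of them were higher with CHIR99021. Over all genes, 9187 such probe sets had a median of -0.59, with 16.6% higher. At least 2-fold lower with CHIR99021 were 7 of the 44 (15.9%), against 28.9% over all genes. At least 2-fold higher was 1 of the 44, and the share over all genes was not counted for this. The lowest was a probe set of Mcm3 at 170 without and 22.4 with CHIR99021, 7.62-fold lower, where the brightest of Mcm3 was 1.37-fold higher. Rrm1 followed at 5.29-fold lower, Rpa2 at 4.39-fold, Rrm2 at 2.60-fold, both further probe sets of Orc2 at 2.04-fold and 2.50-fold, and 1 of Orc3 at 2.28-fold. The array with CHIR99021 had the beta-actin 3' over 5' value of 3.18 given above. Where in the transcripts these probe sets lie was not examined, and the part of the 3' bias was not tested. With the median over the probe sets of a gene in place of the brightest, 1 member, Gins2, was at least 2-fold higher (1.46% of all genes) and 3, Orc2, Rpa2 and Rrm1, were lower (20.2%).

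**Figure D4:**
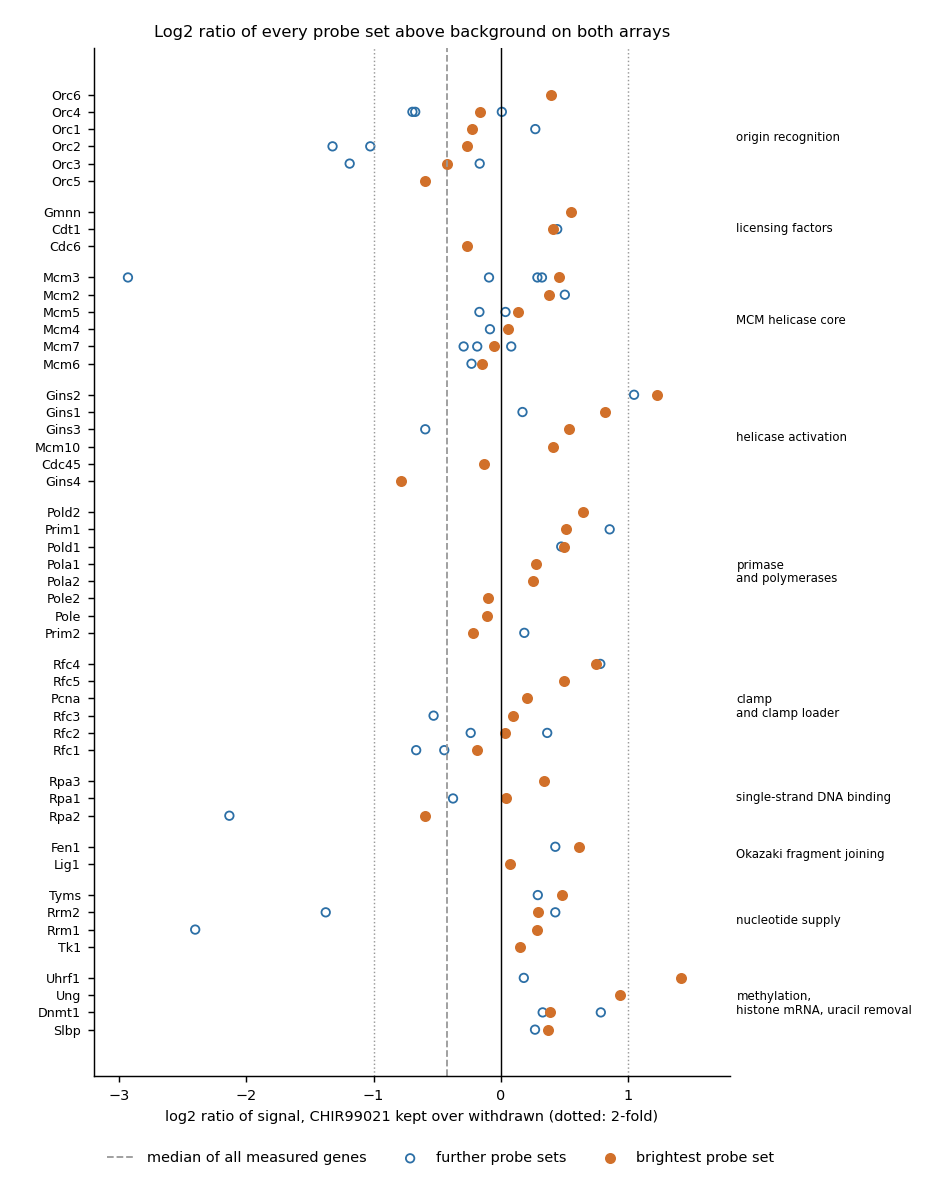
Log2 ratios (CHIR99021 kept over withdrawn) of the 92 probe sets of the 48 genes above background on both arrays, by role, with the brightest probe set of each gene filled and the others open. Most filled points lie to the right of the dashed median of all measured genes, and single open points of Mcm3, Rrm1, Rpa2 and Rrm2 lie far to the left.

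On the authors' scale, genes of neighbouring processes had lower medians than the replication genes in each of 9 lists. This did not hold under every scaling. After loess the replication start kinases and adaptors had a median of 0.59, against 0.57 for the replication genes. After quantile normalization the medians were 0.67 and 0.64. The values below are on the authors' scale unless stated. Of the 115 genes in the 9 lists, 108 were measured. Their median log2 ratio was 0.05, and 84 lay above the median of all genes. Past 2-fold there were 0 higher and 5 lower, where 1.90% and 18.4% of all measured genes were. The list of other nucleotide synthesis had a median of 0.15 over 16 measured genes. In it Dut, the dUTPase that keeps uracil out of DNA, had 1017 without and 2006 with CHIR99021, 1.97-fold higher, and by its other probe set a log2 ratio of 0.13. Cad, which starts pyrimidine synthesis, was 1.75-fold higher, Dctd, a deaminase of deoxycytidylate, 1.64-fold and Nme1, a nucleotide kinase, 1.41-fold, though another probe set of Nme1 had a log2 ratio of -0.86. Of the 16 genes 5 had a lower signal, where 9995 of the 12917 measured genes did, and 0 of the list passed 2-fold in either direction.

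The 10 kinases and adaptors that start replication had a median of 0.11, and 0 passed 2-fold. Ccna2, cyclin A, had 920 and 1717, with another probe set at a log2 ratio of -0.47. Cdc7, the kinase that fires origins, had 362 and 535, with another at -2.24, and Dbf4, its activator, 1031 and 1231. Recql4, a helicase of initiation, was 1.25-fold higher. A lower signal was seen for 2 of the 10, Ccne1 with 284 and 206 and Cdk2 with 437 and 324. These names were chosen after their values were seen. The 18 other polymerase subunits and fork factors had a median of -0.09, and 11 of them had a lower signal with CHIR99021. Of the 12917 measured genes 9995 had a lower signal, and 15 of the 18 lay above the median of all genes. Past 2-fold there were 0 higher and 1 lower, where 1.90% and 18.4% of all measured genes were. The lower one was Pold4, the smallest subunit of polymerase delta, with 229 and 76.6, 2.99-fold lower. Dna2, a nuclease of Okazaki fragments, was 1.42-fold higher, Rnaseh2c, a subunit of the enzyme that removes ribonucleotides from DNA, 1.53-fold and Top2a, a topoisomerase, 1.40-fold.

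In the E2F and Rb family the median was -0.08 over 16 genes. Past 2-fold there were 0 higher and 2 lower, beside 1.90% and 18.4% of all measured genes. Rbl2, the p130 pocket protein that holds E2F targets off in resting cells, had 394 without and 131 with CHIR99021 and a log2 ratio of -1.59, and its other probe set one of -2.09. E2f4, its usual E2F partner, had 33.6 and was below the floor with CHIR99021, at least 2.64-fold lower. E2f8, a repressor induced in S phase, was 1.62-fold higher and E2f5 1.44-fold. The other DNA methylation enzymes had the lowest median of the 9 lists, -0.70 over 6 genes. Past 2-fold there were 0 higher and 2 lower, beside the same shares of all genes. Tet2 and Tet3, which oxidise methylated cytosine, were 2.15-fold and 2.58-fold lower. Dnmt3a, a de novo methyltransferase, had 758 and 409, and Dnmt3b 186 and 188, with another probe set of Dnmt3b at a log2 ratio of -0.82. After loess Dnmt3b was at 0.53, Tet1 at 0.37 and Dnmt3l at least at 0.08, so that 3 of the 6 were above 0. Tet2, Tet3 and Dnmt3a stayed below it. Dnmt3l had 9.21 without CHIR99021, below the floor of 19.2, and 13.5 with it, near the floor of 12.7. Its ratio, at least -0.51 on the authors' scale, rests on the floor, so no direction is given for it. That ratio enters the median of the list.

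The remaining lists held 0 genes past 2-fold in either direction. The counts of lower signals below are at any fold, where 9995 of the 12917 measured genes were lower. The genes named from them lie farthest from the median of all genes, which is below 0, and so are mostly higher ones. The lowest of each list is given too, chosen after its value was seen. Mismatch and base excision repair had a median of 0.13 over 11 genes, with Neil3, a glycosylase, 1.62-fold higher, Apex1, the abasic site nuclease, 1.57-fold, Exo1, an exonuclease, 1.51-fold but with another probe set at a log2 ratio of -0.92, and Xrcc1, a repair scaffold, 1.30-fold. Lower signals were seen for 4 of the 11, the lowest for Lig3, a ligase of repair, at 385 and 221. Chromatin assembly had a median of 0.07 over 10 genes, with the histone chaperone Nap1l1 and the histone acetyltransferase Hat1 both 1.31-fold higher and the chaperone Asf1b at 366 and 439. Of 6 other probe sets of Nap1l1, 4 were lower. Hells, a chromatin remodeller, had 1456 and 1599, and Chaf1b, a subunit of chromatin assembly factor 1 and the only measured gene of the list with a lower signal, 224 and 149. Sister chromatid cohesion had a median of 0.03 over 12 genes, with Chtf18, Chtf8 and Dscc1, of the alternative clamp loader, at 1.26-fold, 1.26-fold and 1.17-fold and Esco2, a cohesin acetyltransferase, at 1.13-fold, with another probe set at a log2 ratio of -0.50. A lower signal was seen for 6 of the 12, the lowest for Stag1, a cohesin subunit, at 841 and 451, a log2 ratio of -0.90. The replication checkpoint had a median of -0.03 over 9 genes, of which 5 had a lower signal. The lowest was Atr, the upstream kinase, at 394 and 258, though its other probe sets had log2 ratios of 0.18 and 0.01. Chek1, the effector kinase, had 408 and 568. Rad1 and Rad9a, of the checkpoint clamp, had 291 and 360, and 130 and 143. Wee1, a kinase that restrains Cdk1, had 517 and 553, with another probe set at a log2 ratio of -1.75.

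**Figure D5:**
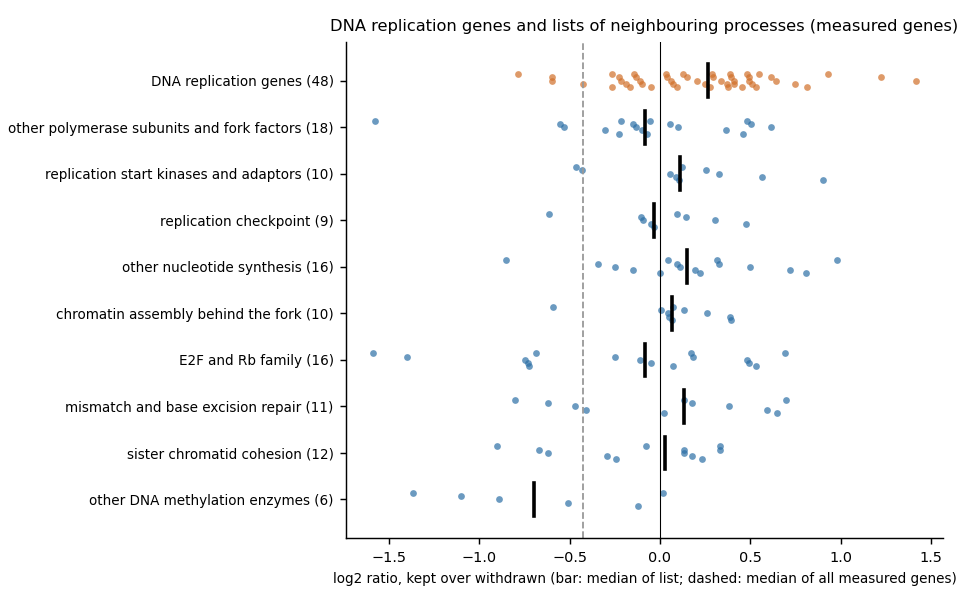
Log2 ratios (CHIR99021 kept over withdrawn) of the measured genes of the replication list (orange) and of 9 lists of neighbouring processes (blue), with the number of genes in brackets, the median of each list as a bar and the median of all measured genes dashed. The median of the other DNA methylation enzymes lies to the left of the dashed line and those of the other lists to its right.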

How the data were processed

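The deposited values are linear intensity signals, 1 for each probe set, and the submitters' processing notes name MAS5 without a version or scaling target. Labelling started from 100 ng of total RNA per array and used a 3' IVT kit, per the labels' protocols, so the signals come mostly from transcript 3' ends. No detection call was used, and which scaling the authors applied stays unknown. Of 45101 probe sets, 34958 named 1 gene, 932 several genes (not used) and 9211 none. Symbols of all 48 members matched a RefSeq table (GRCm38.p6) through Entrez identifiers.

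The floor was the 95th percentile of 80 receptor probe sets on each array, values below it were raised to it, and a ratio against such a value is written as "at least". A gene counted as measured when above the floor on 1 array or both, and as higher or lower at 2-fold. Loess used a span of 0.4. The tools were statsmodels 0.14.6 for loess, pandas 2.3.3 and numpy 2.4.6 under Python 3.11.15. The ratio and scaling steps, except scaling on the hybridization controls, were tested on simulated data. The simulation had a constant shift between the arrays and changed only bright genes. It held no 3' bias and no dependence of the ratio on signal, so it does not show how the steps handle these. Depth has no meaning for arrays, and 1 array per condition limits the precision. The members and lists were chosen with earlier results of these data known. All 48 members may be named. From each related list the 4 measured genes farthest from the median of all genes are named. Promoters shown were chosen after the values were seen.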

Additional observations from a re-analysis of the deposited data

Results flagged for a closer look

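A probe set that names both Tyms and its pseudogene Tyms-ps was outside the single-gene probe sets used above, and its signal was above background on both arrays, at 622 without and 854 with CHIR99021. Its log2 ratio was 0.46, against 0.48 for the single-gene probe set of Tyms. No control sample was available for this reading, and the share of signal from the pseudogene was not tested.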

How the results depend on the processing

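No paired analysis was possible because each condition has 1 array and no test was run. On the authors' scale 2 members were at least 2-fold higher and 0 lower, with a median log2 ratio of 0.26. The count of higher members was 9 after median centring, 9 after quantile normalization, 8 after loess, 7 at a 1.5-fold and 0 at a 3-fold threshold, and 1 with each gene read as the median of its probe sets. The count of lower members was 3 at 1.5-fold and 3 with the median over probe sets, and 0 in every other setting run. The median log2 ratio was 0.74 after median centring, 0.64 after quantile normalization, 0.57 after loess, 0.43 on the hybridization controls and 0.11 with the median over probe sets. Other floors, no floor, an offset of 16, dropping the _x_at and _s_at probe sets, requiring both arrays above the floor, and a mean over the list moved it by less than 0.1. The members' median lay above that of all genes by 0.52 to 0.69 over these settings. The scalings shift all genes by construction, and the cause of the change with the median over probe sets was not tested. Of 528 recomputed ratios of single members 50 changed sign, none of them of Uhrf1 or Gins2. The signal over background limits the dimmest members, Tyms and Gins3, most.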
